A study of Mus musculus with 4 samples.

Results

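Cytochrome P450 genes were examined in whole lung of wild-type mice and of mice labelled SCD, for sickle cell disease. A gene belonged to the family set if a probe set named it alone and its symbol followed the family pattern of Cyp, a number, a letter and a number. This gave 88 genes of the 30701 with a probe set of their own, and of several probe sets of a gene the one brightest on average was kept. Cyp2j7, listed by RefSeq as a pseudogene, and Cyp4a29 entered through symbols updated with the RefSeq table. RefSeq lists 86 of the 88 as protein coding. The WT group held 2 arrays from adult, age-matched C57/BL6 mice. The SCD group held 2 arrays from adult, age-matched mice whose strain label reads SCD Tg. Neither the transgenic line and its promoter nor the sex of the animals is stated in the labels, and no batch is named. The design text gives 2 lungs per genetic group but no label ties an array to an animal. P-values therefore measure the spread between these samples, which may be technical.

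Cytochrome P450 enzymes are heme proteins that insert an oxygen atom into their substrates. Most sit in the endoplasmic reticulum and draw electrons from the reductase Por, while a few work in mitochondria and draw them from ferredoxin. Families differ in their substrates, from foreign compounds and fatty acids to sterols, retinoids and vitamin D. In the mouse lung, club cells of the airways are known as a rich site of these enzymes.

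Values are log2 expression values, a difference is the SCD mean less the WT mean, also in log2 units, ± the moderated standard error (SE) of limma, and n = 2 arrays per group throughout. A gene passed at a Benjamini-Hochberg adjusted p under 0.05 over all 30701 genes. In SCD lung 3 P450 genes rose, Cyp2a4, Cyp7b1 and Cyp2b10, none fell and 85 did not pass. The share called was 3.41% of the P450 genes against 3.09% of all genes, so that calls were about as frequent as in the genome at large. Higher calls made up 2.46% and lower calls 0.635% of all genes, or 754 and 195. With the shift of the positive controls taken off the SCD values, which moves the median of all genes to -0.19, 519 were higher and 569 lower, and the same 3 P450 genes rose. In 23 P450 genes both SCD arrays lay above both WT arrays, and in 11 both lay below. The same held for 25.3% and 22.5% of all genes. A difference of at least 1 was found for 3 P450 genes and for 2.14% of all genes. The median difference of the family was 0.04, and that of all genes was 0.0019.

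Most P450 genes were dim in lung. The 5222 negative control probe sets of the array had a median of 6.32. A higher mean over the 4 arrays was found for 19 P450 genes, while 69 lay below that median. Of all 30701 genes 17513 also lay at or below it. The median of these means was 5.89 for all genes and 4.90 for the P450 genes. The 23 antigenomic background probe sets had a lower median of 3.35, and all 88 P450 genes had means above that. A value under the negative control median is therefore called dim here, and not absent. Means of 50 genes were under 5. The 90th percentile of the negative controls was 9.59, and only Cyp2f2, Cyp2b10, Cyp4b1 and Cyp39a1 among the 88 had higher means. The called genes Cyp2a4 and Cyp7b1 lay below that percentile. The median of the 1324 positive controls was 10.15, and only Cyp2f2, Cyp2b10 and Cyp4b1 among the 88 exceeded it. Brightness depends on the probes as well as on the transcript, so that the values of different genes are not ranked here as amounts of RNA. The 3 calls were among the 19, and of all 13188 genes above that median 6.59% passed. This mean includes the SCD arrays. Cyp7b1 exceeded that median only through them, with a WT mean of 5.54 and a mean of 6.33 over the 4 arrays. The positive control median was 0.20 higher on SCD than on WT arrays and the negative control median was 0.18 lower.

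**Figure D1:**
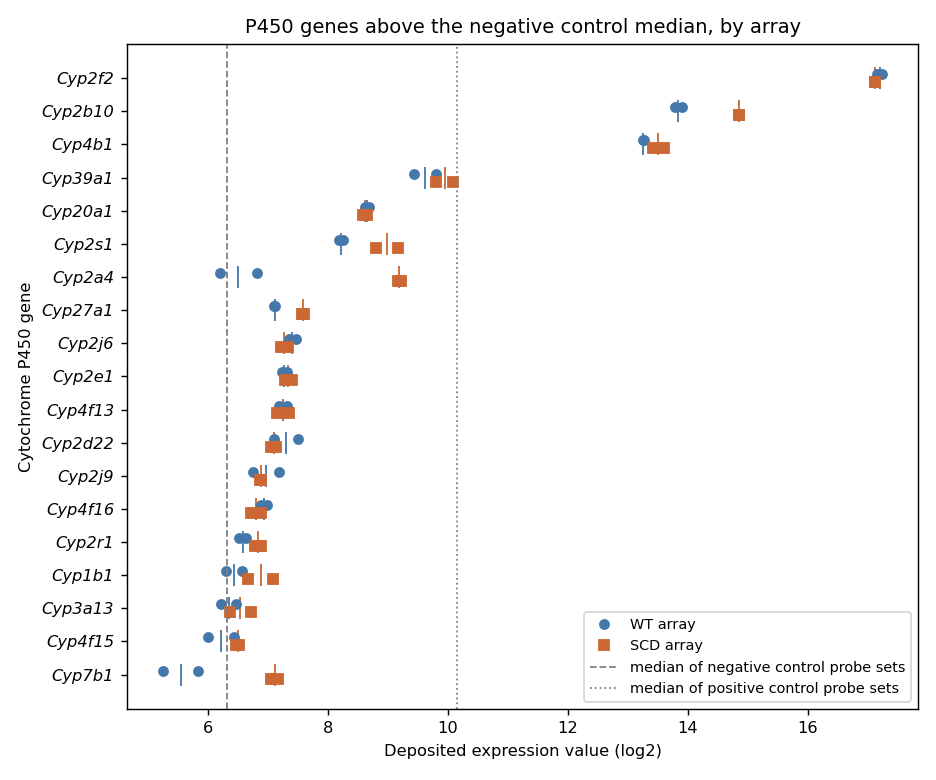
Deposited log2 expression values of the 19 P450 genes whose mean exceeded the median of the negative control probe sets. Circles are WT arrays, squares SCD arrays, and vertical ticks group means. The groups stand well apart for Cyp2b10, Cyp2a4 and Cyp7b1, whereas the points of Cyp2f2 and Cyp2e1 lie close together.

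Cyp2b10 encodes a phenobarbital-inducible enzyme of foreign compound metabolism and is a known target of the receptor CAR. WT lung gave values of 13.78 and 13.90, and SCD lung gave 14.85 and 14.86. Both SCD arrays lay above both WT arrays by a gap of 0.94, and the SCD arrays were nearly equal. Cyp2b10 rose by 1.01 ± 0.07, which is 2.01-fold (adjusted p = 0.00781, limma). It was bright in both groups. Without SCD replicate 1 the difference was 1.01 with an adjusted p of 0.0865, and without SCD replicate 2 it was 1.00 with an adjusted p of 0.109. Neither of those limma fits called any gene (0 of 30701), although 3302 and 3267 genes had an unadjusted p below 0.05.

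The largest difference of any member was that of Cyp2a4, which encodes a testosterone hydroxylase. WT lung gave 6.20 and 6.81, and SCD lung gave 9.22 and 9.16. The groups were 2.35 apart at their nearest points, although the WT arrays differed between themselves by more than the SCD arrays did. Cyp2a4 rose by 2.68 ± 0.22, or 6.42-fold (adjusted p = 0.00787). The part that transcripts of the paralog Cyp2a5 may have in this signal was not tested. One WT array lay below the negative control median of 6.32 and the other above it, and both lay above the antigenomic median of 3.35. Without SCD replicate 1 and without SCD replicate 2 its adjusted p was 0.0898 and 0.109, with differences of 2.66 and 2.71.

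A further probe set is shared by Cyp2a5 and Cyp2a4 and so was no member. Cyp2a5 encodes the mouse coumarin hydroxylase, an enzyme that also oxidizes nicotine and bilirubin. The shared probe set read 6.44 and 6.64 in WT lung and 10.60 and 10.32 in SCD lung. It was low on both WT arrays and high on both SCD arrays. In limma over all 65956 transcript clusters, of which 1.47% were called and 0.914% were called higher, it rose by 3.92 ± 0.16, or 15.1-fold (adjusted p = 0.00869). How much of this signal came from each of the 2 genes cannot be told apart. The adjusted p was 0.196 without SCD replicate 1 and 0.180 without SCD replicate 2, with differences of 3.78 and 4.06.

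The promoter windows of Cyp2a4 and Cyp2a5 are nearly alike, and those of Cyp2b10 and Cyp2b13 show a pair of paralogs that differ more. Each window holds 300 bases around the start of the gene, most of them before it, 5′ to 3′ on the plus strand of RefSeq GRCm38.p6. Capitals mark TTGCATAA, the reverse complement of TTATGCAA.
Cyp2a4 at chr7:26306942-26307241: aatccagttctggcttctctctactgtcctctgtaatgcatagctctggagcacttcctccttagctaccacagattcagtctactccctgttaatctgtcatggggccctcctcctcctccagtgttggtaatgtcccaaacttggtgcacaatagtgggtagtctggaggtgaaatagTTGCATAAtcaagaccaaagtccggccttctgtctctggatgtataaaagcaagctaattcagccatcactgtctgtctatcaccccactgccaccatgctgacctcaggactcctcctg
Cyp2a5 at chr7:26835089-26835388: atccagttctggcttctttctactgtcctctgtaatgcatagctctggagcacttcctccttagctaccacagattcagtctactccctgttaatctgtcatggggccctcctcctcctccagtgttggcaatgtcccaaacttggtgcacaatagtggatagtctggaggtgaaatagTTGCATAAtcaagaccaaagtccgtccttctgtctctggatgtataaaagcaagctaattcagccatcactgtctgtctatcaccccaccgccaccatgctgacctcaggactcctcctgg
Cyp2b10 at chr7:25897408-25897707: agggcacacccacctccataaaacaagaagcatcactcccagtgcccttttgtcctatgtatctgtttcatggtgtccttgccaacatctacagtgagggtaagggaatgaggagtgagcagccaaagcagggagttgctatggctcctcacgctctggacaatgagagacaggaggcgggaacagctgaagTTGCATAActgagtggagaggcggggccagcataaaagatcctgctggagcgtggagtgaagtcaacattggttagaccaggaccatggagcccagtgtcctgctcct
Cyp2b13 at chr7:26061245-26061544: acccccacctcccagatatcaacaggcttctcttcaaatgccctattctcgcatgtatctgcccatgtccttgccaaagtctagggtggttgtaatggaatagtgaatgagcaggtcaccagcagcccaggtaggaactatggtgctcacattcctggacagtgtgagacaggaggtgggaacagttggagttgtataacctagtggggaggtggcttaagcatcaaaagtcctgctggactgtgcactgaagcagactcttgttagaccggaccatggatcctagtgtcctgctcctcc

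The windows of Cyp2a4 and Cyp2a5 were 98.3% identical, with 5 differences over 299 aligned positions. Those of Cyp2b10 and Cyp2b13 were 74.6% identical, and those of Cyp2b13 and Cyp2b9 99.3%. The marked motif begins 70 bases before the start of Cyp2a4, 71 before that of Cyp2a5 and 58 before that of Cyp2b10. It is a kind of site that C/EBP and PAR bZIP factors such as Dbp can bind, and it was chosen after the windows of these genes had been read. On either strand it was found in 0.743% of 32851 promoter windows of this length and in 6 of 76 windows of P450 genes with Cyp2a5 included. Those were Cyp2a4, Cyp2a5, Cyp2b10, Cyp2b19, Cyp2b23 and Cyp4f14. Since the motif was taken from windows that are counted here, and those of Cyp2a4 and Cyp2a5 are near copies, nothing is read from the difference between these shares. RefSeq windows were at hand for 67 of the 88 genes.

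Other motifs were searched on both strands of the same windows. GCGTG, the core of the element bound by the dioxin receptor AHR, was in 15 of 76 P450 windows and 32.4% of all windows. Cyp1a1, Cyp1b1 and Cyp2b10 were among the genes that held it. The D-box forms TTATGTAA and TTACGTAA were in 0 P450 windows and in 0.938% and 0.119% of all windows. CACGTG, the E-box, was in 1 P450 window, that of Cyp2j6, against 7.15% of all windows. TGACNNNGC, the core of the antioxidant response element, was in 7 of 76 against 12.4%. These matches are descriptions of letters in short windows and not of binding.

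Cyp2b10, Cyp2a4 and Cyp2a5 belong to the Cyp2 cluster of chromosome 7, which runs in RefSeq order from Cyp2s1 to Cyp2t4. The cluster held 12 P450 genes, of which 2 rose and 10 did not pass, against 2.46% of all genes called higher. A difference above 0 was found for 10 of the 12 and for 15446 of all 30701 genes. The cluster was singled out with its calls known, so these counts are a description. In 8 of the 12 both SCD arrays lay above both WT arrays, against 25.3% of all genes. Their median difference was 0.27, against 0.02 for the 76 P450 genes elsewhere. The 10 other measured genes within the cluster, pseudogenes and Nlrp and Vmn1r genes among them, gave 0 calls and a median difference of 0.05. Most of these 10 were dim, and only Gm4613, Gm6434 and Rnf170-ps had means above the negative control median, at 17.58, 9.71 and 6.81. Of the cluster's P450 genes only Cyp2s1, Cyp2b10, Cyp2a4 and Cyp2f2 had means above it. The dim genes limit what can be read from the contrast. Among the 25 measured genes before Cyp2s1, Cxcl17 and Ceacam1 rose, by 2.03 and 0.65, and among the 25 after Cyp2t4 none passed. The medians of those neighbours were -0.04 and -0.03.

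**Figure D2:**
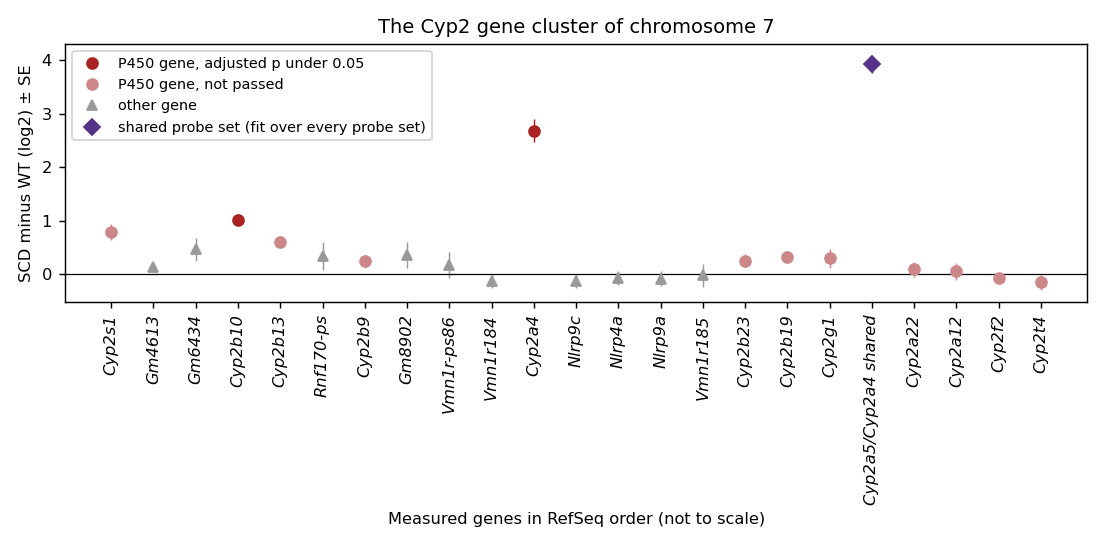
Difference between SCD and WT lung (log2 ± SE) for each measured gene of the Cyp2 cluster of chromosome 7, in RefSeq order and not to scale. The shared probe set of Cyp2a5 and Cyp2a4 (3.92) and Cyp2a4 (2.68) stand highest, while Cyp2a12, Cyp2a22 and Cyp2f2 lie near 0.

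All 5 measured Cyp2b genes had higher values on both SCD arrays than on both WT arrays, against 25.3% of all genes. Cyp2b13 read 5.19 and 5.04 in WT and 5.69 and 5.74 in SCD, a difference of 0.60 ± 0.12 that did not pass (adjusted p = 0.0800). Cyp2b19, known from skin keratinocytes, differed by 0.32 ± 0.11, Cyp2b9 by 0.25 ± 0.11 and Cyp2b23 by 0.24 ± 0.12, and none of these passed. Those 4 genes lay below the negative control median on every array. The smallest Cyp2b difference was 0.05 when the shift of the positive controls was taken off the SCD values. The part that transcripts of Cyp2b10 may have in the signal of its dim paralogs was not tested.

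Cyp2s1, an epithelial P450 of the same cluster known from airways and skin, read 8.18 and 8.24 in WT and 8.81 and 9.17 in SCD. Both SCD arrays lay above the WT arrays by at least 0.56. The difference of 0.78 ± 0.15 did not pass (adjusted p = 0.0735), and it did when the dimmest 50% of genes were left out (adjusted p = 0.0473). Its 95% interval ran from 0.40 to 1.16. Cyp2g1, an olfactory P450, differed by 0.30 ± 0.18 (adjusted p = 0.499).

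Cyp2f2, the naphthalene-activating enzyme of club cells, was at 17.16 and 17.25 in WT and 17.13 and 17.13 in SCD. The SCD arrays lay just below the WT arrays, and the difference of -0.08 ± 0.05 did not pass (95% interval from -0.21 to 0.06). Equal values occurred among other bright genes. Cbr2 read 17.2542 on WT replicate 2 and on SCD replicate 2, and Scgb3a2 read 16.7508 on both SCD arrays. Values of 21 genes, Scgb1a1 among them, were identical on every array. Whether differences are limited at this level was not tested, so the narrow interval of Cyp2f2 is not read as unchanged RNA. Cyp4b1, a lung enzyme that oxidizes fatty acids and furans, was at 13.27 and 13.26 in WT and at 13.60 and 13.42 in SCD. Its groups did not overlap, but the difference of 0.25 ± 0.09 did not pass (adjusted p = 0.246). Cyp2e1, the ethanol-inducible P450, overlapped between the groups, with a difference of 0.07 ± 0.11.

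Cyp7b1 was the single call outside the cluster. It encodes an oxysterol hydroxylase of the alternative bile acid pathway, which also acts on hydroxylated cholesterol made by immune cells and on neurosteroids. WT lung gave 5.24 and 5.83, and SCD lung gave 7.06 and 7.17. SCD arrays lay above WT arrays by at least 1.22, and both WT arrays were below the negative control median. Cyp7b1 rose by 1.57 ± 0.22, or 2.98-fold (adjusted p = 0.0321). Its adjusted p was 0.189 without SCD replicate 1 and 0.216 without SCD replicate 2, with differences of 1.63 and 1.52, and 0.0667 when every probe set was tested.

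Other sterol and bile acid enzymes did not pass. Cyp27a1, the mitochondrial sterol hydroxylase, was at 7.10 and 7.11 in WT and 7.60 and 7.56 in SCD. The arrays of each group were close together and the groups 0.45 apart, with a difference of 0.47 ± 0.10 (adjusted p = 0.0905). It passed when the dimmest 50% of genes were left out (adjusted p = 0.0486). Cyp39a1, an oxysterol hydroxylase, differed by 0.33 ± 0.17 and Cyp8b1, which sets the balance of bile acids in liver, by 0.30 ± 0.15. Cyp7a1, the rate-limiting enzyme of bile acid synthesis in liver, was at 3.94 to 4.16 on all arrays. Cyp46a1, the cholesterol hydroxylase of neurons, differed by -0.09 ± 0.14.

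**Figure D3:**
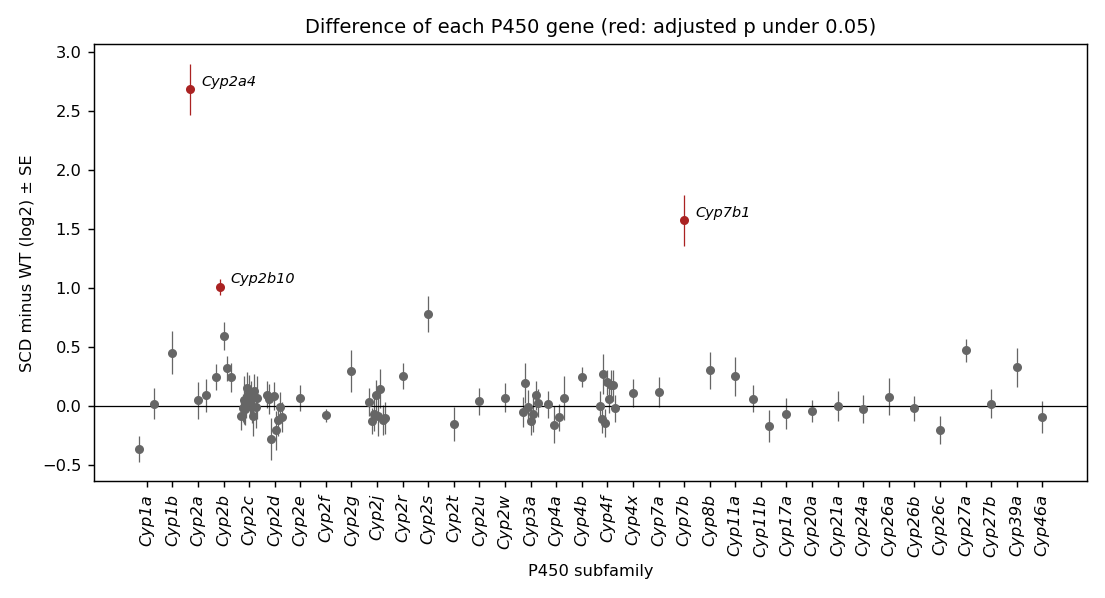
Difference between SCD and WT lung (log2 ± SE) for each of the 88 P450 genes, grouped by subfamily. The 3 genes past an adjusted p of 0.05 are red and named, and 72 of the 88 genes lie within 0.25 of 0.

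The Cyp1 family, whose genes are induced through AHR by aryl hydrocarbons, gave 0 calls. Cyp1a1 read 5.58 and 5.58 in WT and 5.22 and 5.22 in SCD. It was lower on both SCD arrays, with the largest negative difference of the 88 genes (-0.36 ± 0.11), and did not pass (adjusted p = 0.189). All 4 values lay under the negative control median. Cyp1b1, which is known from stromal and endothelial cells, was at 6.56 and 6.29 in WT and 7.08 and 6.67 in SCD. Its difference was 0.45 ± 0.18 (adjusted p = 0.318). Cyp1a2, mainly a liver enzyme, was dim and differed by 0.02 ± 0.13.

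Enzymes of arachidonic acid and other fatty acids gave no call. Cyp2j enzymes make epoxides. The 8 measured Cyp2j genes, with the pseudogene Cyp2j7 among them, differed by -0.13 to 0.15, and Cyp2j6 by -0.13 ± 0.11. Cyp2j9 read 6.75 and 7.17 in WT and 6.89 and 6.87 in SCD, so that the SCD arrays lay between the WT arrays. The 14 Cyp2c genes all lay under the negative control median, with differences of -0.08 to 0.16. Of 9 Cyp4f genes, which include leukotriene hydroxylases, none passed, and their differences ran from -0.14 to 0.27. Cyp4f18, a leukotriene hydroxylase known from mouse neutrophils, was at 5.92 to 6.09 over the 4 arrays, with a difference of 0.06 ± 0.12. Its values lay under the negative control median. Of 12 neutrophil markers 8 rose and 0 fell, against 2.46% of all genes called higher and 0.635% called lower. Their summed level was 16.08 and 16.48 (log2) in WT and 18.76 and 18.92 in SCD. The part of neutrophils in the Cyp4f18 values was not tested. The 4 Cyp4a genes, targets of the receptor PPARA in liver, differed by -0.15 to 0.07, with Cyp4a14 at 0.02 ± 0.12.

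Liver-type families were dim as well. Among the 8 Cyp2d genes only Cyp2d22 exceeded the negative control median, with values of 7.09 and 7.50 in WT and 7.05 and 7.14 in SCD. Cyp2d12 differed by -0.28 ± 0.18. Of the 7 Cyp3a genes, Cyp3a13 alone exceeded that median and differed by 0.20 ± 0.17, while Cyp3a11, the main CYP3A enzyme of mouse liver, differed by -0.04 ± 0.13. Alb of the hepatocyte marker list fell by 0.77, against 0.635% of all genes called lower. Its values of 4.88 to 5.77 lay under the negative control median on every array. The hepatocyte list also gave no rise, and 14 of its 15 genes did not pass. Its summed level was 13.19 and 13.45 (log2) in WT and 13.55 and 13.58 in SCD, most of it from Trf, and 13 of the 15 genes lay below the negative control median.

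Steroid, retinoid and vitamin D enzymes did not pass either. Cyp11a1, which starts steroid synthesis, differed by 0.25 ± 0.18 on its brighter probe set and by 0.05 ± 0.13 on the other in the fit over every probe set. Cyp17a1 and Cyp21a1, which make androgens and adrenal steroids, differed by -0.06 ± 0.13 and by -0.00066 ± 0.13. Cyp26b1, a retinoic acid hydroxylase, was at 5.95 to 6.05 over the 4 arrays, and Cyp26a1 differed by 0.08 ± 0.15. Cyp27b1, which activates vitamin D, differed by 0.02 ± 0.12, and Cyp24a1, which inactivates it, by -0.02 ± 0.12. Cyp20a1, an orphan enzyme, was at 8.58 to 8.68 on the 4 arrays and differed by -0.04 ± 0.10.

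Apart from the probe set of Cyp2a5 and Cyp2a4, 6 probe sets named a P450 gene together with another gene, and none passed. The pair of probe sets for Cyp3a41a and Cyp3a41b differed by 0.03 and 0.04, that of Cyp4a10 and Cyp4a31 by 0.0050 and that of Cyp2c29 and a pseudogene by -0.0061. Cyp4v3 with Klkb1 differed by 0.24 and Cyp2d11 with a microRNA gene by -0.23. Of 8 measured P450 genes whose symbols follow another pattern, among them Cyp51 of cholesterol synthesis and the prostanoid enzymes Tbxas1 and Ptgis, none passed. Cyp51 differed by -0.20 ± 0.12, Tbxas1 by 0.40 ± 0.11 and Ptgis by 0.40 ± 0.12.

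Genes that work with P450 enzymes, control them or act on their products were counted in 12 lists, the one of P450 genes with other symbols included. Over all lists 132 genes were measured, 12 rose, 2 fell and 118 did not pass, with a median difference of 0.06. Of all genes 3.09% were called, 2.46% higher and 0.635% lower, and the counts of each list below stand beside those shares. Without SCD replicate 1 and without SCD replicate 2 none of them passed, and 9 passed without WT replicate 1. Electron transfer partners gave 0 calls among 8 genes, and Por had no probe set that named it alone. Of 16 sensing receptors only Nfe2l2, the regulator of antioxidant genes, rose, by 0.80 ± 0.07. Ahr read 10.01 and 10.07 in WT and 9.47 and 9.19 in SCD, lower on both SCD arrays, and its difference of -0.71 ± 0.13 did not pass (adjusted p = 0.0617). The receptors PXR and CAR, encoded by Nr1i2 and Nr1i3, were dim and differed by 0.14 ± 0.12 and -0.01 ± 0.11.

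Clock output factors rose in 5 of 6 cases. These were Dbp, Tef and Hlf, which are PAR bZIP activators known to drive Cyp2a and Cyp2b genes in mouse liver, by 1.34 ± 0.11, 0.69 ± 0.10 and 0.77 ± 0.11, and the repressors Nr1d1 and Nr1d2, by 1.71 ± 0.13 and 1.06 ± 0.09. The count was 3 of 6 when every probe set was tested, without either WT array, or with the positive control shift removed, and 0 without either SCD array. The time of collection is not stated in the labels, and its part in the P450 values was not tested. In the list of AHR-linked genes 2 of 7 rose, Nfe2l2, which is also in the receptor list, and Lrat. The other 5 did not pass, and the list median was 0.01. Nqo1, Tiparp, Ahrr and Aldh3a1 differed by -0.12, 0.19, 0.01 and -0.02. Gsta2 was lower on both SCD arrays, by 0.43 ± 0.12. Lrat, which esterifies retinol, rose by 2.04 ± 0.17. Among 22 retinoid genes Lrat and the retinal oxidizing enzyme gene Aldh1a1 (0.51 ± 0.08) rose and 20 did not pass.

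Enzymes that act beside or after P450 oxidation went both ways. Ephx1, the microsomal epoxide hydrolase, rose by 1.47 ± 0.10, from 11.01 and 11.22 in WT to 12.60 and 12.57 in SCD. Ephx2, the soluble enzyme that opens fatty acid epoxides, differed by -0.14 ± 0.11 and did not pass. Of 6 flavin monooxygenase genes Fmo1 fell by 1.73 ± 0.10, and of 13 aldehyde dehydrogenase and oxidase genes Aldh1a1 rose and Aox3 fell by 0.88 ± 0.10. Among 21 glutathione transferase genes Gsta3 rose by 0.87 ± 0.09 and Gsto1 by 1.08 ± 0.17. The sulfotransferase gene Sult1d1 rose by 1.24 ± 0.11, the single call among 18 genes of glucuronidation and sulfation. None of 11 carboxylesterase genes passed.

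**Figure D4:**
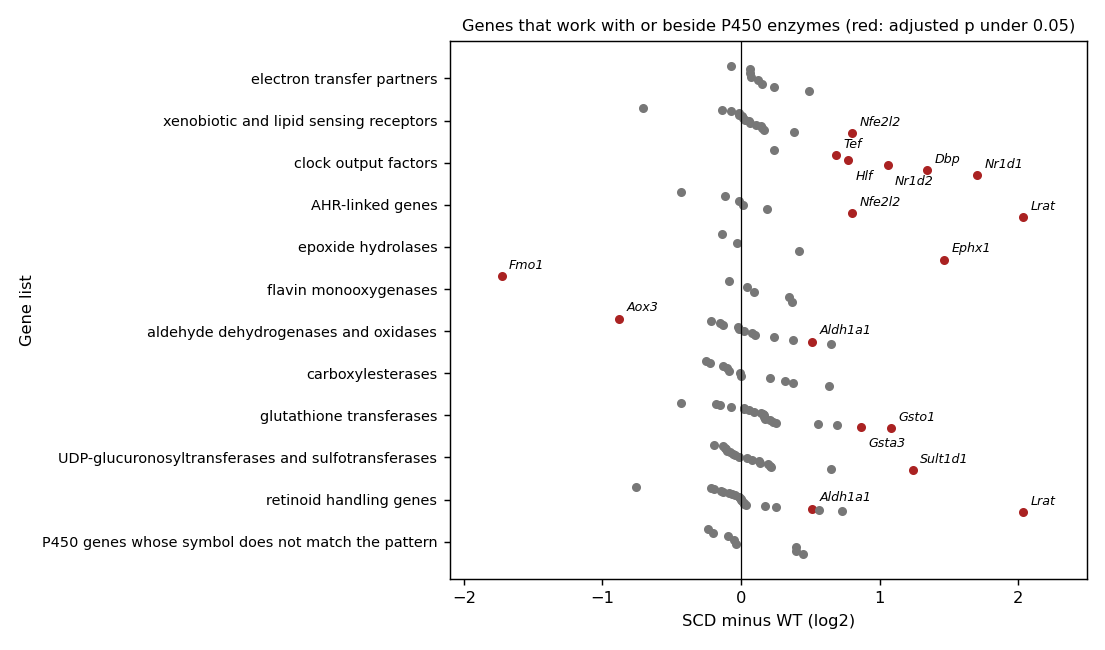
Difference between SCD and WT lung (log2) for each measured gene of the 12 lists, with genes past an adjusted p of 0.05 in red and named. A gene in more than 1 list is drawn in each, and the clock output factors show the most calls for their size, 5 of 6.

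Markers of some cell types that may hold these enzymes also differed between the groups. The counts below stand beside 2.46% of all genes called higher and 0.635% called lower. Of 13 club cell markers Bpifa1 and Retnla rose by 1.28 and 2.12, Aox3 fell and 10 did not pass. The summed club cell level was 20.31 and 20.34 (log2) in WT and 20.39 and 20.38 in SCD, but this sum is dominated by Scgb1a1, which had the highest value of the whole table on all 4 arrays. The mean log2 value of the list was 12.18 and 12.31 in WT and 12.51 and 12.55 in SCD. Ciliated cell markers rose in 8 of 11 cases, with a summed level of 12.38 and 12.57 in WT and 13.89 and 13.84 in SCD. Capillary endothelial markers fell in 5 of 13 cases and rose in 2, with a summed level of 16.20 and 16.30 in WT and 15.84 and 15.90 in SCD. Of 11 fibroblast markers 1 fell, and of 11 markers of monocytes and interstitial macrophages 2 rose. Alveolar type 2 cell markers gave 0 calls among 10, and of 10 alveolar type 1 cell markers 1 rose. Among 10 alveolar macrophage markers 2 rose and 2 fell, and of 10 smooth muscle and pericyte markers 1 rose. The part of these cell types in the P450 values was not tested, and in whole lung a change in cell number and a change in RNA per cell cannot be told apart.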

How the data were processed

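Whole lung RNA of 2 WT and 2 SCD samples was measured on Affymetrix arrays after biotin labelling with an IVT kit, per the labels' protocols. The deposited table holds log2 expression, a scale judged from its range (1.72 to 19.93). The submitters' processing notes name Affymetrix Expression Console, Partek and RMA, with no versions. Platform annotation, with symbols updated through RefSeq GRCm38.p6, gave 31258 probe sets with 1 gene, 1492 with several and 33206 transcript clusters with none. No filter was applied. SCD was compared with WT in limma 3.58.1 (R 4.3.3, lmFit and eBayes with an intensity trend, group only, two-sided), adjusted over all genes, and promoter windows were aligned with Biopython 1.88. Scripts were tested on simulated data. The number of arrays limits precision. Members and lists were chosen with earlier results of these data known, the 32 named genes by a rule (calls, the brightest of each family, the 10 largest other differences, and fixed names). Alternatives covered normalization, filters, variance, thresholds, probe sets, a replicate block and each array left out. P450 genes named outside that rule were chosen after their values were seen.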

Additional observations from a re-analysis of the deposited data

How the results depend on the processing

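The 3 calls (Cyp2b10, Cyp2a4 and Cyp7b1) were made under 12 of 18 alternatives without other P450 calls. Same-numbered arrays shared no deviation (r = -0.0022 across genes) and were not taken as pairs. With a replicate block the counts were 3 for P450 genes, 968 for all genes and 12 for the lists. The P450 count was 2 with every probe set tested or at an adjusted p of 0.01, without Cyp7b1, 5 without the dimmest 50% of genes, 6 at an adjusted p of 0.1, and 0 to 3 when an array was left out. Over all genes the count of 949 became 286 at 0.01 and 1752 at 0.1, and 0 to 786 with an array left out (508 without WT replicate 1, 0 without either SCD array). With the positive control shift removed 519 genes were higher and 569 lower, against 754 and 195. List calls fell from 14 to 9 with every probe set tested and 7 at 0.01, and were 0 to 12 with an array left out. The shared Cyp2a5 and Cyp2a4 probe set ranged from 3.78 to 4.06 with an array left out. With 1 array left in a group, that array is assumed to vary like the other group. The cause of these changes was not tested. Signs changed only for genes that passed neither before nor after. With the positive control shift removed the differences were Cyp1a2 -0.17, Cyp26a1 -0.11, Cyp27b1 -0.18, Cyp2e1 -0.13, Cyp4a14 -0.18 and Cyp4f18 -0.14. With repeated quantile normalization they were 0.036 for Cyp21a1, 0.0047 for Cyp24a1 and 0.0078 for Cyp26b1, and with equal medians 0.030, 0.0076 and 0.012. With an array left out they ran from -0.16 to 0.035 for Cyp17a1, -0.063 to 0.11 for Cyp1a2, -0.10 to 0.10 for Cyp21a1, -0.079 to 0.032 for Cyp24a1, -0.042 to 0.21 for Cyp26a1, -0.059 to 0.021 for Cyp26b1, -0.049 to 0.090 for Cyp27b1, -0.30 to 0.13 for Cyp2j9, -0.12 to 0.031 for Cyp3a11, -0.21 to 0.031 for Cyp46a1, -0.019 to 0.055 for Cyp4a14 and -0.027 to 0.15 for Cyp4f18.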
